A study of Mus musculus with 4 samples.

Results

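Class 8 is 1 of the 14 clusters into which the authors sorted single nuclei of mouse mammary epithelium. Its members are the nuclei that carry the number 8 in the cluster column of the authors' deposited motif table, and each was tied to its library by its name in that table. The class held 441 of the 7846 nuclei of the series, with 134 in adult replicate 1, 297 in adult replicate 2, 3 in fetal replicate 1 and 7 in fetal replicate 2. The 431 adult nuclei are the subject here, and the 10 fetal nuclei were too few to form a group. The assay was single-nucleus ATAC-seq, in which the Tn5 transposase cuts accessible DNA and a combination of barcodes marks each nucleus. The cells came from wild-type mammary glands of CD1 mice, an outbred strain, and were sorted as EpCAM+ (an epithelial surface protein) and Lin- (lacking blood and vessel surface markers). The 2 fetal libraries were taken at embryonic day 18 and the 2 adult libraries at 8 weeks of age, each pair named as biological replicates. No engineered allele or treatment is named, and the labels do not give the number or the sex of the animals in a library.

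The mammary epithelium has an inner luminal layer, which makes milk or responds to hormones, and an outer basal layer that lies on the basement membrane. Basal cells are also called myoepithelial, since they carry smooth-muscle actin and myosin and contract to expel milk. They depend on p63, a transcription factor of the p53 family encoded by Trp63, and make the keratins Krt5, Krt14 and Krt17. In ATAC-seq, promoters are open in most cell types, whereas distal regions such as enhancers differ more from one cell type to another.

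Class 8 made up 5.44% of the 2465 nuclei of adult replicate 1 (exact binomial 95% interval 4.57 to 6.41%) and 10.6% of the 2804 nuclei of adult replicate 2 (9.48 to 11.8%). The larger share lay in replicate 2, and the intervals, which cover counting error only, did not overlap. The class held 761541 and 1959203 reads in the same order, with medians of 4389 and 5214 reads per nucleus. No barcode was shared by any pair of the 4 libraries, and no caller of doublets was run. Within replicate 1, class 8 made up 40.0% of the nuclei of classes 1 and 8 together, and between 34.3% and 42.7% for each variant of the first barcode segment. The corresponding values in replicate 2 were 41.5% overall and 38.9 to 53.7% by segment variant. For the third segment the variants with at least 20 such nuclei ran from 33.3 to 45.2% in replicate 1 and from 36.3 to 47.1% in replicate 2. In replicate 2 those of the second segment ran from 40.9 to 47.8%, and the 22 of the fourth from 20.0 to 65.2%. Class 8 nuclei were thus present with every variant examined.

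The 4 genes by which the class is known were each above the mean level of the other classes in both adult libraries. Reads were counted over each gene with 2000 bases on either side (its span), summed over the nuclei of a class in a library, and given as counts per 1000000 reads of those nuclei (CPM). Each span was compared with the mean log2 level, log2(CPM + 2), of the other classes with at least 50 nuclei in the same library, class 1 included. A span is called higher or lower below when it differed by at least 1 on this log2 scale, a 2-fold step, in the same direction in both adult libraries. The classes are treated here as clusters made from the accessibility of these same nuclei, so no test was applied and all differences are descriptions. Of 15164 spans counted, 370 (2.44%) were higher and 299 (1.97%) were lower in class 8.

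Krt5 encodes the type II keratin of basal cells and lies at chr15:101707069-101712905 (GRCm38). Its span received 59.1 CPM (45 reads) and 54.1 CPM (106 reads) in class 8 of adult replicates 1 and 2, against a reference level of 2.66 and 5.04 CPM. The log2 difference was 3.35 ± 0.51 (SD, n = 2). Both libraries were thus far above the reference level, while class 1, the second adult class with open basal genes, had 70.3 and 69.8 CPM. Class 14, which had enough nuclei (59) in replicate 2 alone, had 27.3 CPM for Krt5, 41.0 for Krt17, 6.83 for Nipal4 and 34.1 for Irx4.

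Krt17, a type I keratin at chr11:100256215-100261029, received 131 and 95.4 CPM against 9.42 and 12.9 CPM, a log2 difference of 3.13 ± 0.59 (SD, n = 2). Nipal4, which encodes a magnesium transporter of epithelia and lies at chr11:46148155-46166359, received 77.5 and 60.2 CPM against 3.40 and 6.41 CPM, a difference of 3.38 ± 0.70 (SD, n = 2). Irx4, a homeobox transcription factor gene at chr13:73259589-73269622, received 90.6 and 82.2 CPM against 9.31 and 8.02 CPM, a difference of 3.05 ± 0.03 (SD, n = 2). Irx4 had the smallest spread of the 4 between the libraries, and for the other 3 the difference was larger in replicate 1. The reference levels of the libraries are not alike, since class 14 enters that of replicate 2 alone. Its part in the spread between libraries was not tested. In class 1 the levels were 111 and 114 CPM for Krt17, 37.5 and 59.9 CPM for Nipal4, and 98.4 and 104 CPM for Irx4. Class 4, the fetal class with open basal genes, had 55.6 and 32.2 CPM for Krt17 and 37.1 and 37.6 CPM for Irx4. It did not stand apart from every other fetal class, since fetal class 12 had 34.9 and 45.0 CPM for Irx4 and fetal class 9 had 36.7 and 28.2 CPM for Krt17. None of the 4 spans met the 2-fold step between class 8 and class 1. With an arithmetic mean of the other classes, in which class 1 weighs more, the difference was 1.98 for Krt5 and 1.97 for Irx4.

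**Figure D1:**
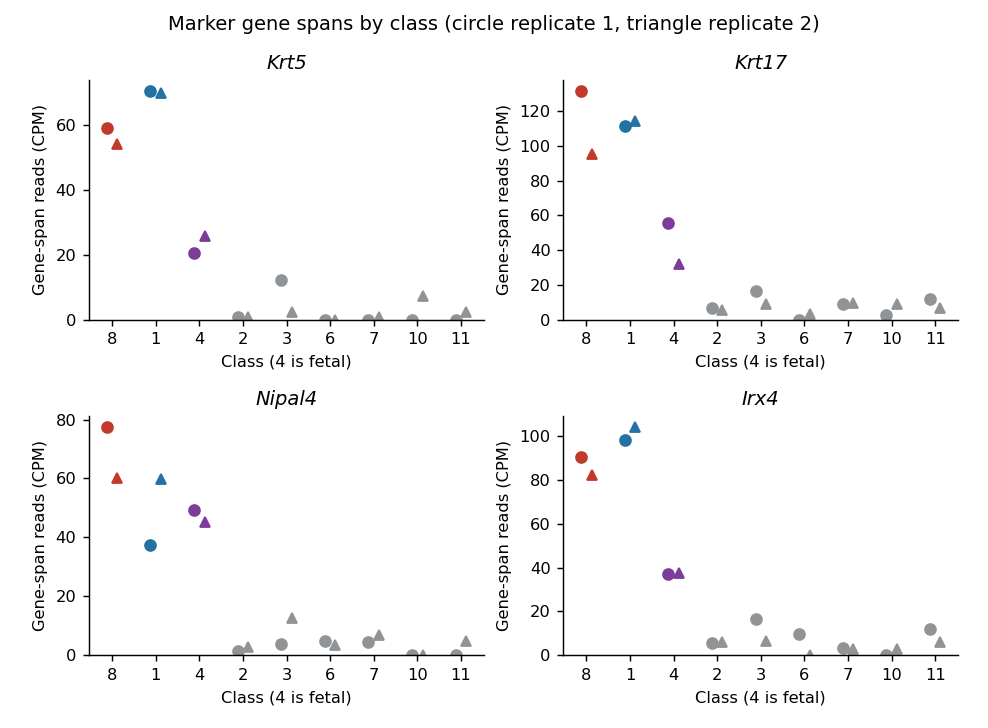
Reads over the spans of Krt5, Krt17, Nipal4 and Irx4 (CPM, vertical axis) in the adult classes with at least 50 nuclei in both adult libraries and in fetal class 4, with a circle for replicate 1 and a triangle for replicate 2. Classes 8 (red), 1 (blue) and, at lower levels for Krt5, Krt17 and Irx4, fetal class 4 (purple) stand above the other classes drawn.

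Single nuclei are sparse at this depth, so most carried no read in a given marker span. A read in the Krt17 span was found in 23.9% and 22.6% of class 8 nuclei, and in 1.93% and 2.16% of the nuclei of class 7, an adult class with low basal levels and medians of 3866 and 4898 reads. When each nucleus was reduced to 2000 reads, the expected shares were 15.9% and 12.2% in class 8, 15.0% and 14.2% in class 1, and 1.16% and 1.12% in class 7. At equal depth the 2 basal classes were close to each other and both were above class 7. The 10 fetal nuclei of class 8 carried no read in any of the 4 marker spans. They held 8006 and 20516 reads in fetal replicates 1 and 2, and the 4 spans together received 358 and 292 CPM in adult class 8. The median Trp63 motif score of these fetal nuclei was -0.35 and 2.22.

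The promoters of these genes are shown because the class is known by them, together with that of Cxcl2, whose promoter was among those furthest below class 1. The sequences are the 250 bases before a gene start from RefSeq (build GRCm38.p6), which held windows for 3 of the 4 marker genes. The Irx4 window lies inside the gene coordinates given above, so it precedes a start within the gene and not its first base. They read 5′ to 3′ on the strand of the gene, at chr15:101712906-101713155 (minus strand) for Krt5, chr11:46166360-46166609 (minus) for Nipal4, chr13:73260247-73260496 (plus) for Irx4 and chr5:90903649-90903898 (plus) for Cxcl2. Capitals mark matches to GGGCGG, the core of SP and KLF sites, or to TTGGCA, the inner part of the NFI site, on either strand.
Krt5: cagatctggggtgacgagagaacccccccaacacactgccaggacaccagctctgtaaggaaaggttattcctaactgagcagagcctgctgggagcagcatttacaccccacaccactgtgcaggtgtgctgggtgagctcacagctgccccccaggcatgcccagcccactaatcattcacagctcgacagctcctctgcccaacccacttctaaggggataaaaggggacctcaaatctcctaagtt
Nipal4: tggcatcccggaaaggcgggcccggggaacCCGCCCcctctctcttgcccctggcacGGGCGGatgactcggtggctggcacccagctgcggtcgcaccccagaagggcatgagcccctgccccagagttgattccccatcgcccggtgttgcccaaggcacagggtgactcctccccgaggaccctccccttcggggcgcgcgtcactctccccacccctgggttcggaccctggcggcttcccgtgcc
Irx4: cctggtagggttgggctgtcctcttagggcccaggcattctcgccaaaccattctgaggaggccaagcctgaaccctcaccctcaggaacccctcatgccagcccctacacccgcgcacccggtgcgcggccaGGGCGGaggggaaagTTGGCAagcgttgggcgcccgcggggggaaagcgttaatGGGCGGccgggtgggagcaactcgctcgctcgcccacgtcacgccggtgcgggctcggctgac
Cxcl2: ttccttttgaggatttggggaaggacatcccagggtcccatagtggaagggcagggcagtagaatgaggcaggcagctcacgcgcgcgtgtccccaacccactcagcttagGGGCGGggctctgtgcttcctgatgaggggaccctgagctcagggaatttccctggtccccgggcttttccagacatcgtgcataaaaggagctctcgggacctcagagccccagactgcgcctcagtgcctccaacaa
The Krt5 window was 56% G and C with 2 CpG, and the Nipal4 and Irx4 windows were 71.6% and 68.8% with 19 and 22 CpG. The marker promoters thus differ widely in base composition. GGGCGG occurred 2 times in Nipal4, 2 times in Irx4 and 1 time in Cxcl2, and it occurs in 42.7% of the 17492 RefSeq windows of this length. TTGGCA occurred 1 time, in Irx4, and occurs in 11.8% of windows. The other 8 motifs searched on both strands had no match in these 4 windows, which says only that their letters are absent there. The AP-1 motif TGANTCA occurs in 6.22% of all windows, the TEAD motif GGAATG in 11.6% and the RUNX motif TGTGGTT in 3.88%. The SOX motif ACAATGG occurs in 2.36% of all windows, the FOX motif TGTTTAC in 2.58% and the GATA motif AGATAA in 9.12%. The ETS motif GGAAGT occurs in 20.5% of them, and the p53 family pair, CATG repeated after a gap of 6 bases, in 0.423%.

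Most genes of the basal marker list were higher. Of the 13 basal markers, 10 were higher and none was lower, with a median log2 difference of 2.00, where the median of all spans counted was -0.22. The 13 include the 4 genes by which the class is known, all called higher above, so those 4 calls add nothing new. Krt5 and Krt17 also stand in the keratin list below, and Irx4 in the list of transcription factors. The gene lists were drawn up with earlier results of these data known, and their counts are read against the 2.44% and 1.97% above. The median difference from the other classes also rose with gene length. It was -0.29 and -0.32 for genes under 10 kb and 0.49 and 0.59 for those over 300 kb. Part of a long gene's difference may thus be common to genes of its length. Trp63 itself, the gene of the p63 factor, received 209 and 151 CPM in the 2 libraries, a log2 difference of 1.58 ± 0.53 (SD, n = 2). Its level in class 1 was 281 and 268 CPM, above both class 8 libraries but under the 2-fold step. Krt14, the keratin partner of Krt5, received 118 and 47.0 CPM, a difference of 2.76 ± 0.92 (SD, n = 2), with replicate 1 well above replicate 2. Of 7 basal keratin genes, 6 passed the filter on reads, and Krt5, Krt14 and Krt17 were higher. Snai2, a basal repressor of the epithelial state, had 30.2 and 43.4 CPM and differences of 0.35 and 0.76, short of the step.

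Contractile genes were higher in 6 of 15 cases, none was lower, and the list had a median difference of 1.01. Acta2, smooth-muscle actin, received 84.0 CPM (64 reads) and 98.0 CPM (192 reads), a log2 difference of 2.27 ± 0.37 (SD, n = 2). Cnn1, the actin-binding calponin, received 36.8 and 29.1 CPM, a difference of 2.00 ± 0.33 (SD, n = 2), and Myh11, smooth-muscle myosin, received 141 and 107 CPM, a difference of 1.83 ± 0.43 (SD, n = 2). Oxtr, the oxytocin receptor through which milk ejection is triggered, received 91.9 and 110 CPM, a difference of 1.27 ± 0.11 (SD, n = 2). These 4 genes were close to their class 1 levels, for example 114 and 115 CPM for Acta2. Srf and Myocd, which encode regulators of contractile genes, had mean differences of -0.35 and -0.04 and were not called.

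Among 18 genes of adhesion and basement membrane, Lama3, a laminin chain of hemidesmosomes, and Cdh3, P-cadherin, were higher, with log2 differences of 1.25 ± 0.26 and 1.44 ± 0.18 (SD, n = 2). The list median was 0.62. Lama1, Col4a1, Col4a2 and Sparc had differences of 1.30 to 2.13 in replicate 1 and 0.89 to 0.97 in replicate 2. All 4 passed the step with TMM scaling, which matches the classes on their typical span, and also without the nuclei that had over 50% of their reads outside the authors' region lists. Of 20 basal transcription factor genes, Trp63, Trp73, Irx4, Mef2c and Bcl11b were higher and none was lower, with a list median of 0.36. Mef2c, a factor of muscle genes, received 108 and 144 CPM, a difference of 1.13 ± 0.13 (SD, n = 2). Runx1, Nfib and Tead1 differed from the other classes by under 0.5 in each library, with 558 and 370 CPM for Runx1 in class 8. CPM is not divided by the length of a span, so levels of different genes are not compared.

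In the Notch pathway, which acts between touching cells, the ligand genes Dll1 and Jag2 were higher, with log2 differences of 1.32 ± 0.06 and 1.72 ± 0.01 (SD, n = 2). The receptor genes Notch1 and Notch3 were lower, at -1.18 ± 0.23 and -1.41 ± 0.11 (SD, n = 2). The Jag2 span received 74.8 and 73.0 CPM and the Notch3 span 21.0 and 17.9 CPM, so each was near equal in the libraries. The median of the 15 Notch genes was -0.32, near that of all spans. In the Wnt pathway, 4 of 23 genes were higher and none was lower. These were the ligands Wnt5a and Wnt10a and the R-spondin receptors Lgr5 and Lgr6, with Lgr5 at 131 and 118 CPM and a difference of 1.51 ± 0.18 (SD, n = 2). Wnt10a was under the step, at 0.88, when the flanks of the gene were left out. Against class 1, 0 of the 15 Notch and 0 of the 23 Wnt genes were called. The Notch spans summed to 981 and 856 CPM in class 8 and 1282 and 1093 CPM in class 1. The Wnt spans summed to 2135 and 1884 CPM against 2543 and 2349 CPM. Of 16 growth factor genes, Nrg1, Bmp7 and Il17b were higher and Hbegf was lower. Nrg1, the neuregulin ligand of ERBB receptors, received 636 and 582 CPM, a difference of 1.58 ± 0.49 (SD, n = 2). Hbegf, an EGF receptor ligand on chromosome 18, received 15.8 and 14.3 CPM against 60.5 and 51.3 CPM, a difference of -1.76 ± 0.07 (SD, n = 2). It was also lower than in class 1, by 1.35 and 1.34.

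Few luminal genes passed the step, and those that did were lower. Of 8 general luminal genes, Krt8, Cldn3 and Cldn4 were lower and none was higher, with a list median of -1.14. Cldn3, a claudin of luminal tight junctions, received 17.1 and 8.17 CPM (13 and 16 reads), with differences of -1.16 and -2.38. Krt8, the luminal keratin, received 40.7 and 29.6 CPM, a difference of -1.21 ± 0.24 (SD, n = 2), and was not called without the nuclei over 50% outside the lists. Of 8 luminal progenitor genes, Ehf, an ETS factor gene, was lower at -1.27 ± 0.14 (SD, n = 2), and the 9 mature luminal genes had 0 calls and a median of -0.69. Gata3, a luminal regulator, was at 301 and 222 CPM in class 8 with differences of 0.35 and -0.12.

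Markers of other cell types that a sort could hold passed the filter on reads in part: 6 of 7 stromal, 4 of 4 pericyte, 5 of 5 endothelial, 3 of 5 immune, 2 of 4 adipocyte, 2 of 3 Schwann and 1 of 4 skeletal muscle genes. Of the genes that passed it, 0 were called in either direction. The list medians, taken over all genes of a list whether or not they passed the filter, lay between -0.42 and 0.44. Beside class 1, however, the pericyte list had 2 of 4 genes higher in class 8, where 2.34% of all spans counted were higher. Rgs5 received 13.1 and 17.9 CPM against 2.34 and 5.40 CPM, and Abcc9 received 22.3 and 23.0 CPM against 7.03 and 1.96 CPM. The class 1 levels of both genes rest on few reads. The 4 pericyte spans summed to 133 and 122 CPM in class 8, 84.3 and 98.7 CPM in class 1, and 211 and 311 CPM in class 6, the adult class with stromal genes. Neither gene was called without the nuclei whose reads lay mostly outside the listed regions, though the list median was then 0.89. The 5 endothelial genes had a median of 0.88 against class 1 with 0 calls (with TMM scaling 1.09 and 1 higher, Cdh5), and summed to 162 and 148 CPM in class 8 and 117 and 113 CPM in class 1. No pericyte or endothelial span was at 0 reads in class 8, and their part in the results was not tested.

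The 8 highest and 8 lowest spans were named among those with at least 20 reads, observed or expected, per library, and are given as extremes. Besides the 4 markers, the highest were Il17b, Gm6040, Kctd4 and Krtap11-1. Il17b, a cytokine gene on chromosome 18, received 88.0 and 61.2 CPM against 7.43 and 6.65 CPM. Krtap11-1, a keratin-associated protein gene on chromosome 16, received 46.0 and 21.4 CPM against 1.05 and 1.67 CPM, and its class 1 level was 14.1 and 27.5 CPM. The lowest were Gde1, Vill, Mlph, Foxn1, Rbl1, Pacs1, Hbegf and Gpx3. Vill, which encodes a villin-like actin-binding protein, received 15.8 and 12.2 CPM against 69.2 and 62.1 CPM. Mlph, melanophilin of vesicle transport, received 11.8 and 13.3 CPM against 51.7 and 53.04 CPM. The Foxn1 span had 5 and 8 reads in class 8 and 23.4 and 4.91 CPM in class 1, where class 8 had 6.57 and 4.08 CPM, so class 1 was well above class 8 in replicate 1 and close to it in replicate 2.

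With TMM scaling, the median log2 difference of all spans moved from -0.17 and -0.22 to 0.01 and 0.00 in the 2 libraries, and the calls became 618 higher and 121 lower. Krt8, Ehf and Notch1 were then no longer called lower, and Mylk, Lmod1, Krt15 and Pdgfa joined the higher calls of their lists. With the arithmetic mean the split was 195 higher and 495 lower, and many list members were then not called. The higher calls were then 8 of 13 basal, 3 of 15 contractile, 1 of 18 adhesion, 1 of 20 transcription factor, 1 of 15 Notch, 1 of 23 Wnt and 2 of 16 growth factor genes. Those no longer called were Trp63, Trp73, Mef2c, Bcl11b, Oxtr, Actg2, Tpm2, Lama3, Dll1, Wnt5a, Wnt10a, Lgr6 and Bmp7. The lower calls with that mean were 2 of 8 luminal progenitor, 3 of 9 mature luminal and 5 of 8 general luminal genes.

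The promoter share of reads set class 8 apart from the other adult basal class in both libraries. Promoter regions here are the 19204 distinct 1000-base regions of the authors' list, distal regions are the 145453 of their second list, and a read was counted where it overlapped a region by at least 1 base. The median class 8 nucleus had 19.2% and 17.96% of its reads in promoter regions in adult replicates 1 and 2, and the median class 1 nucleus had 25.4% in each. Of class 8 nuclei, 129 of 134 (96.3%) and 282 of 297 (94.9%) lay under the class 1 median, while 9 of 201 and 7 of 418 class 1 nuclei lay under the class 8 median. The distributions overlapped little, and class 8 was lowest of the adult classes in each library. Class 11, an adult class with mature luminal genes, came next in replicate 2 with 18.1%, and it and class 3, with luminal progenitor genes, had 21.2% and 21.0% in replicate 1. A low promoter share was thus not peculiar to class 8.

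The difference was present at each depth. In replicate 1 the class 8 median was 19.5% in nuclei with 2000 to 4000 reads, 19.1% with 4000 to 8000 and 18.9% with 8000 or more. The class 1 medians in the same bands were 24.7%, 26.6% and 25.1%. In replicate 2 class 8 had 17.4%, 17.7% and 19.4%, and class 1 had 25.6%, 25.4% and 26.2%. Every class 8 band lay below every class 1 band.

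Distal regions did not hold the difference in promoter share. Distal regions held 43.0% and 38.6% of the reads of the median class 8 nucleus and 44.8% and 44.5% in class 1. Reads outside both lists made up 37.0% and 42.5% in class 8 against 29.3% and 29.8% in class 1. The share of reads on the X chromosome was 2.27% and 2.90% in class 8, against 1.78% and 2.03% in class 1, and in class 11 it was 2.25% and 2.52%. Within class 8 the X share was 1.91% and 2.09% in nuclei with at most 35% of reads outside the lists, near the 1.82% and 1.98% of such class 1 nuclei, and 5.35% and 4.58% in those with over 60%.

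**Figure D2:**
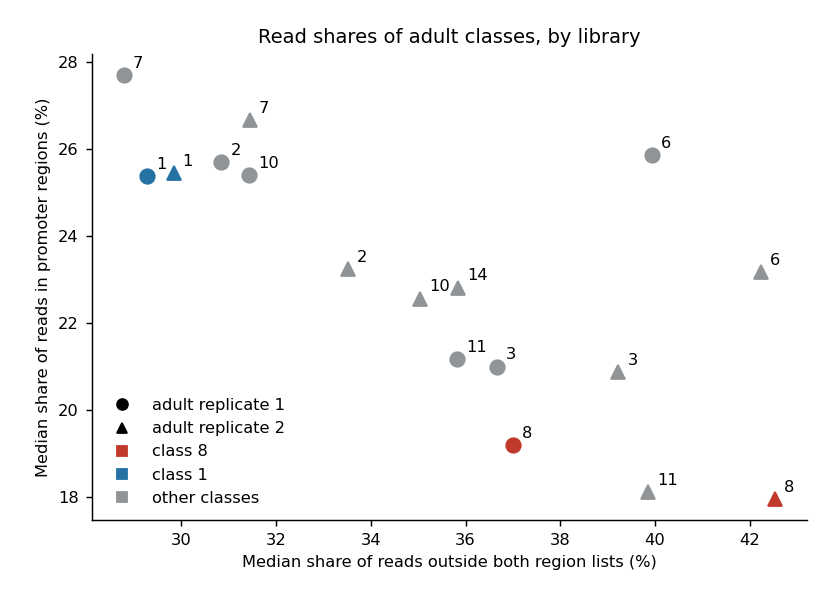
Median share of reads in promoter regions (vertical axis, %) against the median share outside both region lists (horizontal axis, %) for each adult class with at least 50 nuclei, with a circle for adult replicate 1 and a triangle for adult replicate 2. Class 8 (red) has the lowest promoter share in each library, 19.2% and 17.96%, and class 1 (blue) lies at 25.4% in both.

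Within class 8, nuclei differed widely in the share of reads outside both lists, and more so in replicate 2. In replicate 1, 12 of 134 nuclei (8.96%) had over 50% of their reads outside, and in replicate 2, 99 of 297 (33.3%) did. The same was seen in 2 of 201 and 5 of 418 class 1 nuclei, and in 78 of 360 (21.7%) class 11 nuclei of replicate 2. The mean Trp63 motif score, defined below, was 4.73 and 3.93 in class 8 nuclei with at most 35% outside and 1.90 and 1.97 in those with over 60%. The 4 marker spans together received 447 and 340 CPM in the first band and 151 and 149 CPM in the last. Summed marker reads of the last band were 4 in replicate 1, from 6 nuclei, and 51 in replicate 2, from 67 nuclei. The 8 luminal spans also received less in the last band, 151 and 143 CPM against 452 and 504 CPM in the first, and the mean Foxa1 score was nearer 0, at -0.68 and -1.23 against -2.94 and -2.74. In nuclei with the most reads outside the lists, basal and luminal span reads were thus both lower, and both motif scores were nearer 0. Because CPM is over all reads, part of the fall in span reads can follow from the grouping itself. The same can hold for the motif scores, which rest on reads in regions. Without the nuclei over 50%, a choice made after the data were seen, the median promoter share averaged 19.7% over the libraries against 18.6% with them, and class 1 then had 25.5%.

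**Figure D3:**
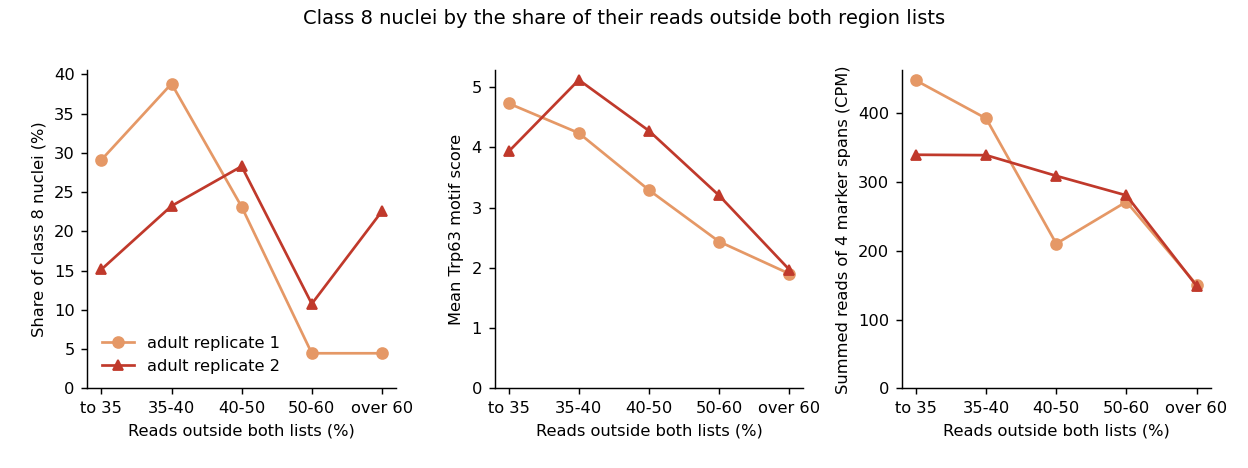
Class 8 nuclei grouped by the share of their reads outside both region lists (horizontal axis, %), showing from left to right the share of class 8 nuclei (%), the mean Trp63 motif score and the summed reads of the 4 marker spans (CPM), for adult replicate 1 (circles) and 2 (triangles). Score and marker reads are lowest in the last band, with 1.90 and 1.97 for the score.

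Reads around gene starts gave a second view of the same difference. In class 8, 50-base bins at RefSeq gene starts held 20.1 and 20.6 times as many reads as bins near 2000 bases away, against 26.1 and 27.5 times in class 1. Classes 3 (20.2 and 21.0) and 11 (18.7 and 18.4) were near class 8 or below it. At the centres of distal regions the corresponding ratio was 4.79 and 5.00 in class 8 and 4.87 and 5.11 in class 1. By this ratio the 2 basal classes were close at distal centres, and class 8 was lower at gene starts. Bins at distal centres held 29631 and 26479 CPM in class 8 and 32202 and 32868 CPM in class 1. Those near 2000 bases away held 6188 and 5300 CPM against 6606 and 6436 CPM, so both parts of the ratio were lower in class 8. Reads rose again towards 2000 bases from distal centres, so those bins are no clean background, and equal contrast is not read from the ratio.

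Spans of long genes were those most often higher than in class 1. Of 15024 spans counted in this comparison, 352 (2.34%) were higher and 192 (1.28%) were lower in class 8. The higher genes had a median length of 163 kb, the lower ones 10.9 kb, and all those counted 26.6 kb. By length, the median log2 difference from class 1 was -0.34 and -0.44 for genes under 10 kb and 0.44 and 0.55 for the 556 genes over 300 kb. Without the nuclei over 50% outside the lists, the longest genes were at 0.40 and 0.41, and the calls were 211 higher and 114 lower. A long span holds more bases outside both lists, and whether more than that set the order was not tested.

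**Figure D4:**
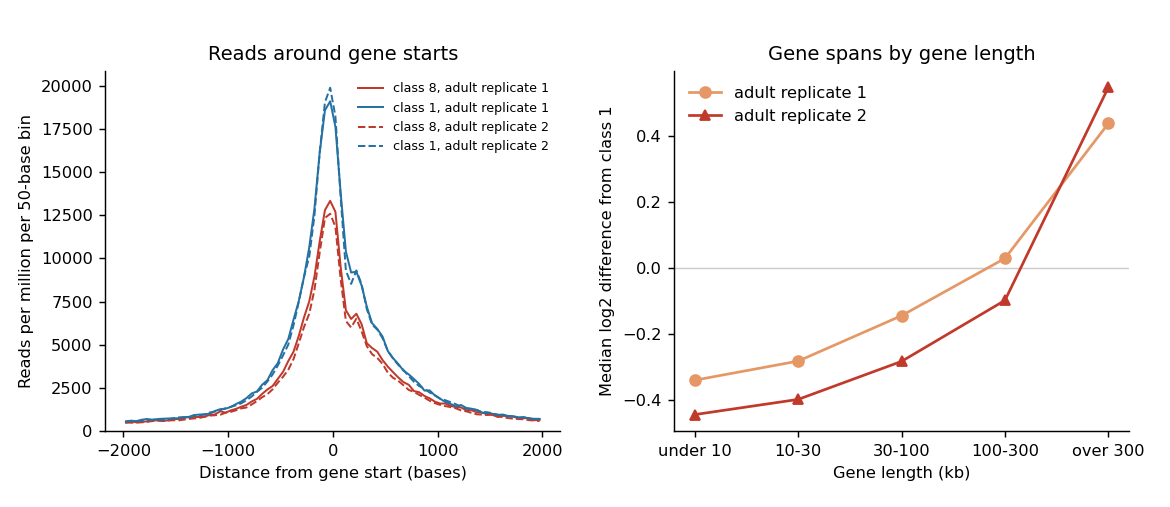
Left, CPM in 50-base bins by distance from RefSeq gene starts (bases) in class 8 (red) and class 1 (blue), with solid lines for adult replicate 1 and dashed lines for replicate 2. Right, median log2 difference of gene spans between class 8 and class 1 by gene length (kb), rising from -0.34 and -0.44 under 10 kb to 0.44 and 0.55 over 300 kb.

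The genes furthest above class 1 were Cnksr2, Spag17, Slc4a10, Armc4 and Wdr64, each over 100 kb long. Cnksr2, a scaffold protein gene on the X chromosome, received 47.3 and 50.5 CPM in class 8 and 4.69 and 8.84 CPM in class 1. Spag17, a gene of cilia, received 39.4 and 37.8 CPM against 7.03 and 4.91 CPM. Slc4a10, a bicarbonate transporter gene, received 42.0 and 80.6 CPM against 7.03 and 16.7 CPM, and its mean log2 difference of 2.21 became 0.99 without the nuclei over 50% outside. Wdr64 had 20 and 63 reads in class 8 and none in class 1 of replicate 1, so no fold is given. Fetal class 4 had 25.7 and 39.9 CPM for Cnksr2 and 41.2 and 46.0 CPM for Slc4a10.

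The genes furthest below class 1 were Cxcl2, Trappc4, Rps25, Rufy4 and Cep19. Cxcl2, a chemokine that attracts neutrophils, received 10.5 and 15.3 CPM in class 8 and 58.6 and 82.5 CPM in class 1, and the log2 differences of -2.28 and -2.29 were almost equal. In the 300 bases around its gene start, of which the first 250 are printed above, class 8 had 3 and 9 reads (3.94 and 4.59 CPM) and class 1 had 20 and 75 (23.4 and 36.8 CPM). Class 7, with luminal progenitor genes, had 25.5 and 18.2 CPM there. The Krt5 window held 15 and 16 reads in class 8 (19.7 and 8.17 CPM) and 10 and 22 in class 1 (11.7 and 10.8 CPM). The Nipal4 window held 21 and 32 reads in class 8 (27.6 and 16.3 CPM) and 8 and 33 in class 1 (9.37 and 16.2 CPM). The Irx4 window held 3 and 12 reads in class 8 (3.94 and 6.12 CPM) and 4 and 17 in class 1 (4.69 and 8.35 CPM). Class 8 was thus below class 1 in both libraries at Cxcl2 and, by less, at Irx4, on either side of it at Krt5, and at or above it at Nipal4. Trappc4 and Rps25 are neighbours whose spans overlap and share most of their reads, 4 and 10 in class 8 for either, and cannot be told apart. With TMM scaling the calls against class 1 were 519 higher and 50 lower.

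No gene of the basal lists was called between the 2 adult basal classes. Between class 8 and class 1, 0 of 13 basal, 0 of 15 contractile, 0 of 18 adhesion and 0 of 20 transcription factor genes were called. Over all spans counted, 2.34% were higher and 1.28% lower, so lists of this size would hold few calls in any case. Of the 16 growth factor genes, only Hbegf was called. The list medians for these groups lay near the median of all spans, -0.26.

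Single promoter regions were lower far more often than higher when set against class 1. Of 9741 promoter regions counted, 507 (5.2%) were lower and 10 (0.103%) were higher in class 8, and the median log2 difference over all of them was -0.45 and -0.54. With TMM scaling over promoter regions the medians became -0.11 and -0.08 and the calls 52 lower and 47 higher. On the CPM scale the median promoter was thus lower, and not the called regions alone. Without the nuclei over 50% outside the lists, 285 were lower and 13 higher. A search of G and C content over the called regions is void, since a RefSeq start lay in 64.1% of the lower regions, under the 80% required.

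The lowest promoter regions against class 1 lay at Cxcl2 (chr5:90902674-90903673, 4 and 22 reads, 5.25 and 11.2 CPM against 43.3 and 61.4 CPM), at the divergent start of Rps25 and Trappc4, and at Rufy4, Stk11ip and Ncoa6. Among regions with at least 20 class 8 reads in each library, the 5 highest were regions at Pate1 and Serpinb8 and, with no RefSeq start inside them, at chr2:98666604-98667603, chr1:24612337-24613336 and chr17:22739367-22740366. The chromosome 2 region received 147 and 138 CPM in class 8 and 37.5 and 50.6 CPM in class 1, so both libraries were high, and it alone of the 5 passed the step in both. The chromosome 1 region received 177 and 830 CPM against 115 and 171 CPM, with 1627 reads in replicate 2 alone. Its log2 difference was 0.62 in replicate 1 and 2.27 in replicate 2, so replicate 2 decides its mean of 1.44. Fetal class 4 had 280 and 272 CPM there. For both the chromosome 1 and the chromosome 2 region, reads from near copies elsewhere in the genome could not be set apart. The regions at Pate1 and Serpinb8 and on chromosome 17 also rest on 1 library, with the smaller difference between 0.71 and 0.84.

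Against all other classes, 158 of 9196 promoter regions (1.72%) were higher and 217 (2.36%) were lower, or 245 and 37 with TMM scaling and 95 and 337 with the arithmetic mean. The lowest lay at Cldn3 (chr5:134985486-134986485), with 2 reads in each library, 2.63 and 1.02 CPM, against 29.2 and 31.3 CPM. Next were a region at chr5:115732068-115733067, one at the class I histocompatibility gene H2-D1, which has near copies that could share reads, and those at Ntmt1 and Ccdc71l. The highest lay near Aebp1 (chr11:5859597-5860596, 42.0 and 23.0 CPM against 4.66 and 2.37 CPM), within Sulf1, and at Il17b, Krtap11-1 and Cyp2j9. The promoter region of Il17b received 43.3 and 23.5 CPM against 2.96 and 2.82 CPM. Class 1 was also above the reference level at these 5 promoters, with 35.1 and 30.0 CPM near Aebp1 and 37.5 and 27.0 CPM at Il17b.

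Distal regions were mostly sparse, and a region could pass the filter on reads through a high level in class 8 alone. Of 9688 counted, 1934 (20%) were higher and 266 (2.75%) were lower in class 8. The higher ones had a median distance of 59.6 kb to the nearest listed promoter, the lower ones 27.7 kb, and all those counted 36.7 kb. With no filter, 7928 of 145453 were higher and 4434 lower, and the median log2 difference was -0.19 and -0.07 in place of 0.39 and 0.24. Of the 720 regions with at least 30 reads on average, 35 were higher and 18 lower. The large share called higher and its balance against the lower calls therefore moved with the filter, and nothing is read from them. Against class 1 the counts were 136 of 14845 (0.916%) higher and 798 (5.38%) lower, or 154 and 390 without the nuclei over 50% outside the lists and 189 and 434 with TMM scaling. With no filter they were 3145 and 2896.

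The highest distal region, at chr7:117699328-117700327, lay between genes and held 38 and 49 reads, 49.9 and 25.0 CPM against 0.56 and 0.73 CPM. Class 1 had 9.37 and 7.86 CPM there, and the region was also among the 5 highest against class 1. A region inside Cyfip2, at chr11:46205181-46206180, received 31.5 and 24.5 CPM against 1.39 and 1.11 CPM. In the authors' deposited table its highest co-accessibility score, 0.638, was with the promoter region of Nipal4, one of the 4 markers. A region inside 1600014C10Rik, at chr7:38189031-38190030, received 81.4 and 64.3 CPM against 3.42 and 5.55 CPM, and in the authors' deposited table it scored 0.344 with the promoter region of that gene. A region at chr10:19497872-19498871 received 36.8 and 48.0 CPM against 2.51 and 2.48 CPM, and in the authors' deposited table its best promoter partner, with 0.245, lay at Il20ra, a subunit of receptors for interleukins of the skin. The co-accessibility scores were made over all nuclei of the series, so they are no measure of class 8 itself. The other 4 of the 8 highest lay on chromosomes 10, 17, 7 and 3, the last inside Adh7.

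Among the 5 lowest distal regions, the one inside Hk1 (chr10:62299663-62300662), a hexokinase gene, held 2 and 4 reads, 2.63 and 2.04 CPM against 30.7 and 26.0 CPM. The region next to Nfkbia (chr12:55487242-55488241), which encodes the inhibitor of NF-kB, received 6.57 and 3.57 CPM against 32.6 and 21.2 CPM. In the authors' deposited table it scored 0.369 with the Nfkbia promoter region. Against class 1 the lowest lay at chr8:107114320-107115319, with 2 and 4 reads in class 8 and 35.1 and 26.5 CPM in class 1. The region at chr10:83133873-83134872, inside the chondroitin sulfotransferase gene Chst11, received 5.25 and 5.61 CPM against 36.3 and 27.0 CPM. Fetal class 4 was low at both, with 4.12 and 3.86 CPM at the first and 6.18 and 5.47 CPM at the second.

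The Trp63 and Trp73 motif scores stood far above those of every other motif relative to the other classes. The authors' deposited chromVAR score tells how much more accessible the regions with a motif are in a nucleus than expected, centred near 0. Class means were taken per library, and a motif was called when class 8 differed from the mean of the other classes by at least 0.5 in the same direction in both libraries. Of the 427 motif columns, of which 388 were distinct, 23 (5.39%) were higher and 92 (21.5%) were lower. Trp63 averaged 3.98 and 3.78 in class 8, a difference of 4.54 and 4.15, and Trp73 averaged 3.96 and 3.83, a difference of 4.57 and 4.28. Trp53, whose factor binds a related site, differed by only -0.12 and -0.17. These 2 motifs were also the 2 that passed the step against class 1 (0.468%), with 0.80 ± 0.04 for Trp63 and 0.93 ± 0.07 for Trp73 (SD, n = 2), and none was lower (0%). The Trp63 difference from class 1 was 1.22 without the nuclei over 50% outside the lists. That choice dropped 12 of 134 and 99 of 297 class 8 nuclei, and 2 of 201 and 5 of 418 in class 1. The dropped class 8 nuclei averaged 2.17 and 2.37, so the rise from 0.80 follows from the choice. In nuclei with at most 35% outside, Trp63 averaged 4.73 and 3.93 in class 8 and 3.23 and 3.10 in class 1. The difference was 1.20 in nuclei at or above the median depth, but the classes were not compared at equal depth. By medians over nuclei, Trp63 was at 3.77 and 3.38 in class 8 and 2.72 and 2.96 in class 1. That is under the 0.5 step in replicate 2, so Trp63 was then not called. By nucleus the classes overlapped, since 40 of 134 and 129 of 297 class 8 nuclei scored under the class 1 median. Class 1 averaged 3.15 and 3.01 for Trp63 and fetal class 4 averaged 2.89 and 2.81, so class 8 had the highest mean of the 3 basal classes.

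After the p53 family came Nfic with differences of 1.43 and 1.42, Sox9 with 1.09 and 1.21, Nfia and Nfib, whose columns are identical, with 1.02 and 0.98, and Tead4 with 0.95 and 0.93. NFI factors are widely expressed and bind distal regions, SOX9 is a factor of progenitor cells, and TEAD factors act with YAP. Sox4 completed the 8 highest columns, with 0.90 and 0.89. None of these differed from class 1 by 0.5 in both libraries. In the TCF/LEF family, which acts in the Wnt pathway, Lef1 and Tcf7l2 were higher, by 0.73 and 0.63 and by 0.76 and 0.65. RUNX, GATA, STAT, RBPJ and MEF2 and SRF motifs had no call in either direction.

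**Figure D5:**
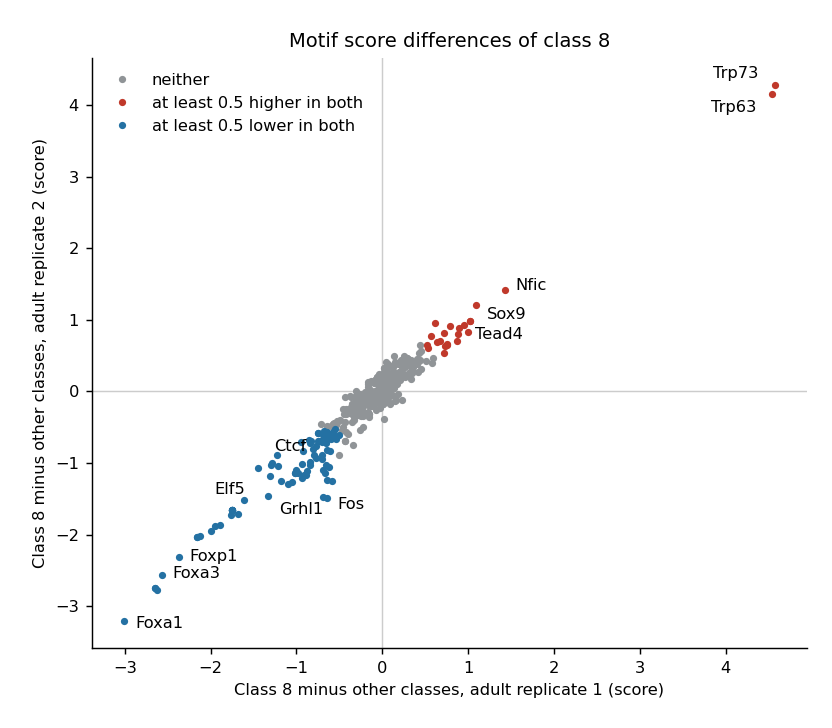
Motif score of class 8 minus the mean of the other classes in adult replicate 1 (horizontal axis) and adult replicate 2 (vertical axis), 1 point per motif column. Trp63 and Trp73 lie above 4 in both libraries, and Foxa1 lies lowest at -3.01 and -3.21.

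All 23 forkhead columns, 16 of them distinct, were lower in class 8. Foxa1, a pioneer factor of hormone-responsive luminal cells, differed by -3.01 and -3.21, with class 8 means of -2.35 and -2.33. The next lowest were Foxc2, Foxs1, Foxc1, Foxa3, Foxp1, Foxj3 and Foxn2, of which Foxc2 and Foxs1, and Foxj3 and Foxn2, have identical columns. The mature luminal classes 2 (3.70 and 4.20) and 11 (4.30 and 4.66) had the high Foxa1 means from which class 8 differed, and class 1 was also low, at -1.99 and -2.27. Of 7 ETS motifs 6 were lower, with Elf5, a factor of luminal progenitors, at -1.45 and -1.08. Of 13 AP-1 motifs 8 were lower, among them Fos at -0.65 and -1.49, with a larger difference in replicate 2. Grhl1 differed by -1.33 and -1.46, Ctcf, the motif of loop anchors, by -1.30 and -1.03, and Esr1, the oestrogen receptor, by -0.98 and -1.15. Of the 9 listed motifs that occur mostly in promoters, 8 had a column, 1 was higher and none was lower, and Sp1 differed by 0.03 and 0.07.

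Across 36253 distal regions, log2 levels of class 8 correlated at r = 0.679 and 0.797 with class 1 of the same library, at 0.572 to 0.711 with fetal class 4, and at 0.432 and 0.508 with class 3. Across the 427 motif means the values were 0.941 and 0.945 with class 1 and 0.835 to 0.857 with class 4. With fetal classes 12 and 9 they were 0.482 to 0.599 and 0.168 to 0.359. These are descriptions across regions and motifs, which are not replicates, and classes of 1 library share its preparation and depth. In both measures class 1 was the adult class most like class 8.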

How the data were processed

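Single-nucleus ATAC-seq reads of 2 fetal and 2 adult libraries were processed by the authors with Bowtie2, MACS2 and bedtools on build mm10, per the submitters' processing notes, which give no versions. The deposited motif table holds a chromVAR score per nucleus for 427 motifs and the class of the nucleus. How the classes were made, and from which motif collection, is not given in the sources used here. The deposited read positions were counted here, as read counts per class and library, over the authors' distal and promoter regions and over gene spans. A second deposited table holds co-accessibility scores. In a deposited table of gene values, 7846 columns were not used.

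The listed nuclei held 13588107 and 19304830 reads in adult replicates 1 and 2 (fetal: 6028168 and 15801908), and each nucleus had at least 2000 reads. Counts were scaled to CPM over all reads of the class's nuclei, and log2(CPM + 2) was compared within each adult library. Fold changes are on that scale, which understates the change of low features. Features needed at least 10 reads on average over the libraries, as the mean of observed and expected reads, and a 2-fold step in both libraries. The class is treated as a cluster made from the accessibility of these same nuclei, so no test was run. RefSeq gene models (GRCm38.p6) gave the spans, starts and promoter sequences. Values were computed in Python 3.11.15 (pandas 2.3.3, numpy 2.4.6; exact intervals with scipy 1.17.1, plots with matplotlib 3.10.9). The steps that call differences, but not the counting of reads, were tested on simulated span counts with known changes.

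The members and gene lists were chosen with earlier results of these data known. Named features were the 4 markers, examples from the fixed lists, and the extremes ranked by the smaller difference of the 2 libraries. These were the 8 highest and 8 lowest spans and motifs, the 8 highest and 5 lowest distal regions, and the 5 highest and 5 lowest promoter regions. Against class 1 they were the 5 highest and 5 lowest of each kind. High features needed at least 20 class 8 reads in each library, and low features at least 20 expected reads. Alternatives were the pseudocount, TMM scaling, the filter, the arithmetic mean, gene flanks, leaving out each library and leaving out nuclei with over 50% of reads outside the lists.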

Additional observations from a re-analysis of the deposited data

How the results depend on the processing

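No paired analysis was possible because the results come from no test, so no fit could hold a replicate block. Differences of class 8 from other classes were taken within each adult library. Fetal values are set beside the adult ones only as levels and correlations, with no pairing by replicate number. Counts are given as higher, then lower where both are named. Of 152 alternative values of the counts and of the promoter share, 64 stayed close to the reported ones (counts within 1.5 times, the share within the SD of the libraries). The balance of higher against lower calls turned for spans with the arithmetic mean, with 1 library (also against class 1) or without the nuclei with most reads. It turned for promoter regions with TMM scaling or without nuclei mostly outside the listed regions, and for distal regions against class 1 with no filter.

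With a pseudocount of 5, spans numbered 233 and 185 (95 lower than class 1), distal regions 1223 and 172 (58 and 385 against class 1) and promoter regions 77 and 81 (3 and 245). With 0.5, 220 distal and 20 promoter regions were higher than class 1. TMM scaling gave 618 and 121 spans, 50 spans lower than class 1, 434 distal regions lower than class 1, and 245 and 37 promoter regions (47 and 52 against class 1). A filter of 30 reads gave 221 and 176 spans (188 and 104 against class 1), 35 and 18 distal regions (1 and 111) and 3 and 24 promoter regions (1 and 127). No filter gave 756 spans higher than class 1, 7928 and 4434 distal regions (3145 and 2896) and 389 and 514 promoter regions (228 higher than class 1). The arithmetic mean gave 195 and 495 spans, 630 lower distal regions and 95 and 337 promoter regions. Without the tenth of nuclei with most reads, 353 spans were lower than class 1, and 940 and 138 distal regions differed (79 higher than class 1).

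Leaving out 1 library, so that the other alone made the calls, gave 756 to 821 higher and 1013 to 1194 lower spans, and 670 to 974 and 1103 to 1269 against class 1. For distal regions it gave 1249 to 4895 and 250 to 1183, and 463 to 1002 and 1342 to 4066 against class 1. For promoter regions it gave 227 to 458 and 734 to 895, and 132 to 163 and 1503 to 2005. From 4 to 8 motifs were then lower than class 1. A motif step of 1 left 4 higher and 32 lower, and 0 higher than class 1. Medians over nuclei left 1 motif higher than class 1, with Trp63 no longer called, and nuclei above the median depth gave 1 lower. Without nuclei mostly outside the listed regions, an alternative chosen after seeing the data, 211 and 114 spans differed from class 1, 131 distal regions were lower (390 than class 1), 114 promoter regions were lower (285 than class 1), 3 motifs were lower than class 1 and the promoter share averaged 19.7%. Counted by read midpoint, that share was 17.1%.

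Class 8 held fewer reads in replicate 1, most distal regions counted had under 30 reads, and single regions rest on few reads. The causes of these shifts were not tested.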
